A study of Mus musculus with 6 samples.

Results

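Neurons pass signals at synapses, where vesicles filled with transmitter fuse with the cell membrane and receptors on the next cell answer. Glial cells surround them: oligodendrocytes wrap axons in myelin, and astrocytes clear glutamate from the synapse. Healthy articular cartilage, the tissue of chondrocytes, normally lacks nerve fibres. The genes described here are a fixed list of 35 mouse gene symbols covering synaptic vesicle proteins, the neuronal cytoskeleton, transmitter receptors and transporters, myelin proteins and astrocyte genes. Members were the rows of the deposited expression table with one of these symbols, and 26 of the 35 had a row, out of 11955 rows in all. The other 9 (Cplx1, Gad1, Grin1, Rbfox3, Elavl3, Mbp, Mog, Aqp4 and S100b) had no row in the table used here, in which every row had a mean of at least 0.25 FPKM.

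RNA was sequenced from 6 mouse samples labelled as chondrocytes, 3 of genotype Eldr cKI and 3 of genotype control, in a study titled for Eldr, a long noncoding RNA, and the senescence of chondrocytes. No treatment, age, strain, Cre driver or further allele is given for either group in the sources used here, nor whether the samples came from separate animals, so p-values measure only the spread between these samples, which may be technical. Eldr itself has no row among the table's protein-coding genes and was not analysed here. Gene positions below are on GRCm38. Values are FPKM, fragments per kilobase of transcript scaled to each library's mapped fragments, and a difference is the change in mean log2(FPKM + 1), Eldr cKI minus control.

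The libraries were shallow and of mixed composition. Depth estimated from steps in the low FPKM values was 69575 to 240749 fragments in Eldr cKI and 64598 to 169049 in control, so that 1 fragment of a 2-kb transcript was worth 2.08 to 7.19 FPKM in Eldr cKI and 2.96 to 7.74 FPKM in control. Of all values, 46.8% were listed at 0, among them Polr2a, which encodes the main catalytic subunit of RNA polymerase II, in Eldr cKI replicate 1 and control replicate 3, so a 0 here says only that a gene was listed at 0. The chondrocyte list had rows for 9 of 21 markers. They summed to 2.06 to 10.7 FPKM per Eldr cKI library and 5.83 to 19.5 FPKM per control library. The cartilage collagen gene Col2a1 was listed at 0 in every Eldr cKI library, against 0.956, 4.52 and 0 FPKM in control. Prg4, another marker of the list, had 1.01, 0 and 6.16 FPKM in Eldr cKI and was listed at 0 in every control. Cardiomyocyte markers summed to 2227 to 7241 FPKM in Eldr cKI and to 1690.2 to 3553 FPKM in control, and these values do not bear out the cell type on the labels. In bulk RNA, fewer cells of a type and less RNA per cell cannot be told apart.

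Most neuronal and synaptic transcripts were found mainly in control replicates 1 and 2. Of the glial members, Slc1a2, Slc1a3 and Glul were above 0 in all 3 controls, whereas Gfap was listed at 0 in control replicate 3. Of the 26 genes, 6, 8 and 11 were listed above 0 in Eldr cKI replicates 1, 2 and 3, against 24, 20 and 10 in control replicates 1, 2 and 3. Their summed FPKM was 68.5, 101 and 88.9 in Eldr cKI replicates 1, 2 and 3, against 316, 578 and 245 in control replicates 1, 2 and 3. The groups did not overlap in this sum, but Tubb3 and Glul made up most of it in 4 libraries. Without these genes, which were singled out after their values were seen, the sum was 9.16, 14.5 and 15.001 FPKM in Eldr cKI, against 218, 433 and 16.2 FPKM in control. Control replicate 3 then lay just above the highest Eldr cKI library, and the other control libraries stood far above these 4. Of the glial members, 4 had a row. Their FPKM summed to 20.4, 48.9 and 44.2 in Eldr cKI, against 102, 153 and 96.5 in control. Glul held most of each of these sums, at 86.6, 109.9 and 90.4 FPKM in control. In Slc1a2, Slc1a3 and Gfap, control replicate 3 lay below control replicate 1. Of the 26 genes, 12 were listed at 0 in all 3 Eldr cKI libraries, beside 16.6% of all rows, and 0 were listed at 0 in all 3 controls. The highest value lay in control replicate 2 for 16 of the 26 genes and in control replicate 1 for 7, whereas over all rows these libraries were highest in 15.5% and 23.3%.

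**Figure D1:**
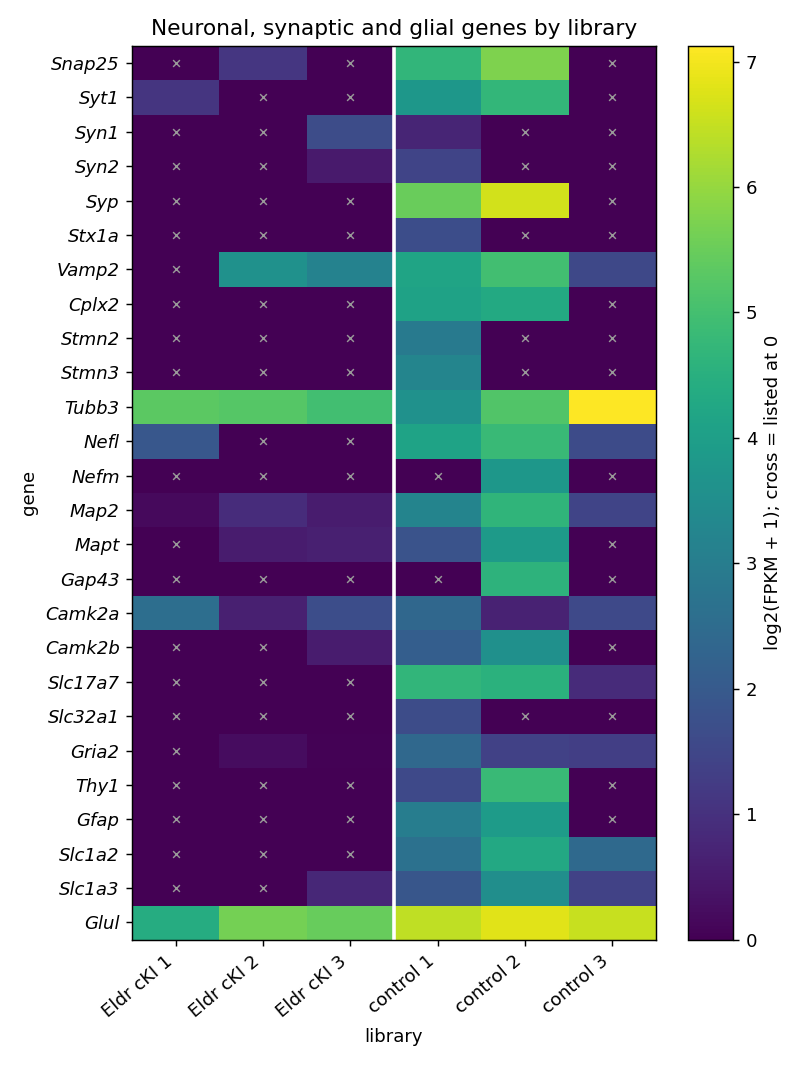
FPKM of the 26 members with a row in each library, on a log2(FPKM + 1) colour scale, with the Eldr cKI libraries left of the white line and the controls right of it; crosses mark values listed at 0. Most colour lies in control replicates 1 and 2, while Tubb3, Glul, Map2 and Camk2a are above 0 in every library.

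No member passed the test between genotypes. Limma, fitted to log2(FPKM + 1) of the 10772 genes whose mean reached 0.5 FPKM, called 0 of the 22 members in the fit at a Benjamini-Hochberg adjusted p under 0.05, beside 3 of all genes tested (0.0278%). This background was 0 genes without Eldr cKI replicate 1 or without control replicate 3, and 7 lower and 5 higher genes without control replicate 1. At an unadjusted p under 0.05, limma gave 6 members lower (Syp, Slc17a7, Slc1a2, Snap25, Nefl and Cplx2) and 0 higher, beside 1.66% of all genes lower. An equal-variance two-sample test per gene, to which the deposited p-values are numerically equal, gave 0 members past an adjusted p of 0.05. It gave 4 lower at an unadjusted p under 0.05 (Slc1a2, Gria2, Glul and Slc1a3), beside 1.39% of all genes. Only Slc1a2 was among the lower genes of both tests. Limma's SEs here came from the trend over all genes and not from a gene's own spread. Of the 22 members, 21 had a lower mean log value in Eldr cKI, beside 51.1% of all genes, and their median difference was -1.87, beside -0.04 over all genes. These 22 passed a filter on their mean level, which mostly reflects the controls, so the counts describe them and are no test. Among the 12 of them listed above 0 in both groups, the median difference was -1.67, beside 0.02 over the 8330 such genes in all. The 4 members below the filter were Syn1, Syn2, Stx1a and Slc32a1, and with no filter 24 of the 26 had lower and 2, Syn1 and Camk2a, higher mean log values in Eldr cKI.

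**Figure D2:**
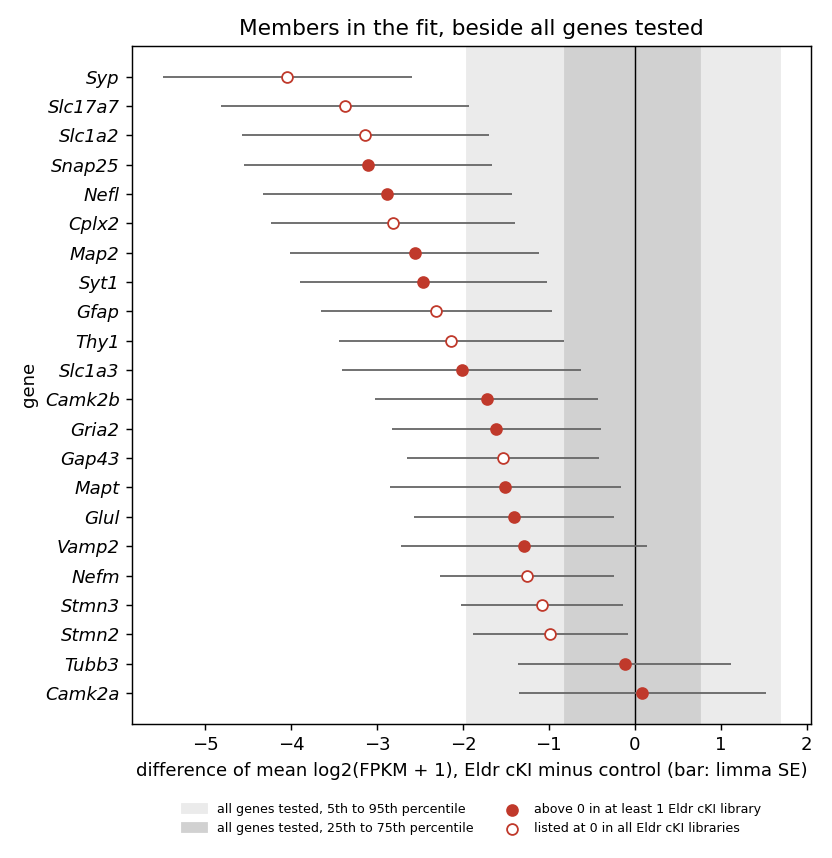
Difference in mean log2(FPKM + 1), Eldr cKI minus control, for the 22 members in the fit, with limma SE as bars and the spread of all genes tested as grey bands; open points are genes listed at 0 in all Eldr cKI libraries. Among genes above 0 in both groups, values run from -3.11 for Snap25 to 0.09 for Camk2a, and none passed the adjusted test.

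Synaptic vesicles fuse when the SNARE proteins on vesicle and membrane zip together under the control of a calcium sensor and of complexins. The gene Syp (chromosome X, 7638471 to 7653256, plus strand) encodes synaptophysin, an abundant vesicle membrane protein. It was listed at 0 in all Eldr cKI libraries, against 44.2, 98.1 and 0 FPKM in control replicates 1, 2 and 3 (limma, adjusted p = 0.959). Snap25 (chromosome 2, 136713453 to 136782428, plus strand), a SNARE of the nerve terminal membrane, had 0, 1.17 and 0 FPKM in Eldr cKI, against 24.9, 52.8 and 0 FPKM in control. Syt1, the calcium sensor of fast release, had 1.16, 0 and 0 FPKM in Eldr cKI, against 12.8, 25.2 and 0 FPKM in control. In each of these genes control replicates 1 and 2 were high and control replicate 3 fell within the range of the Eldr cKI libraries, so the groups overlapped. The differences were -3.11 (SE 1.45) for Snap25 and -2.46 (SE 1.44) for Syt1, with a limma adjusted p = 0.959 for each. Cplx2, a complexin that holds primed vesicles ready, was listed at 0 in all Eldr cKI libraries, against 16.2, 19.2 and 0 FPKM in control, and did not pass either (limma, adjusted p = 0.959).

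Vamp2, the vesicle SNARE that is also found outside neurons, followed the pattern less closely. It had 0, 11.3 and 7.999 FPKM in Eldr cKI, against 16.9, 30.2 and 1.92 FPKM in control, and the groups overlapped. Its difference of -1.29 (SE 1.43; limma, adjusted p = 0.959) was -0.16 without Eldr cKI replicate 1, and 0.72 without control replicates 1 and 2. The remaining vesicle genes were low, and the number of fragments behind their values is not known. Stx1a, the usual syntaxin partner of Snap25, was listed at 0 in every library except control replicate 1, at 2.21 FPKM. The synapsins, which tether vesicles in reserve, were low too: Syn1 had 0, 0 and 2.15 FPKM in Eldr cKI, against 0.674, 0 and 0 FPKM in control. Syn2 had 0, 0 and 0.420 FPKM in Eldr cKI, against 1.73, 0 and 0 FPKM in control.

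**Figure D3:**
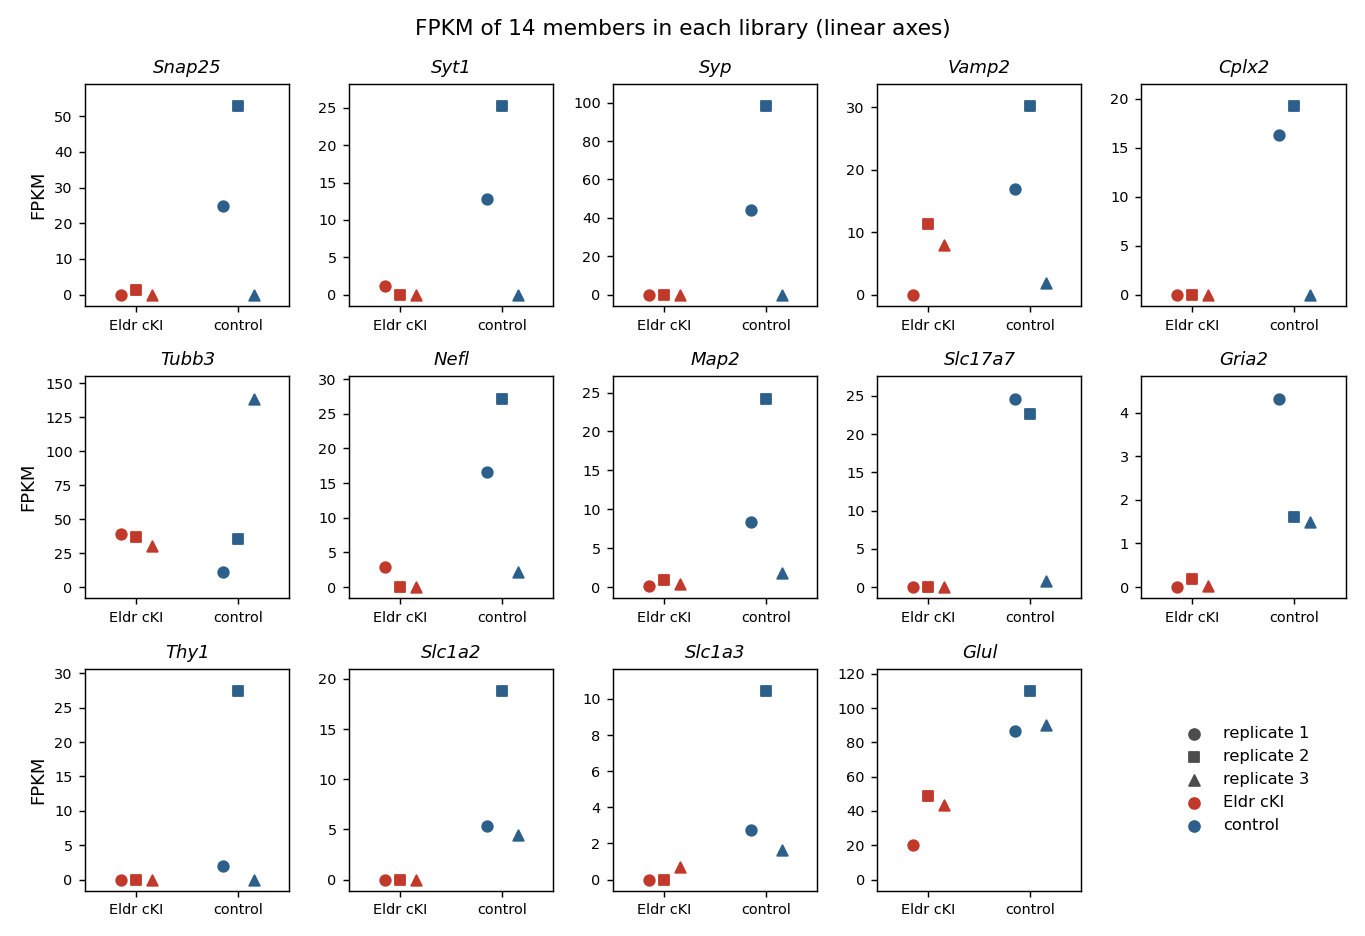
FPKM of the 14 members described in full, on linear axes that differ between panels, with Eldr cKI left and control right in each panel and the marker shape giving the replicate. In most panels control replicates 1 and 2 lie above the rest, while Tubb3 is highest in control replicate 3 and Glul is above its Eldr cKI values in all 3 controls.

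Other genes of the presynaptic terminal, from a list of 32 of which 28 had a row, were spread over the libraries in the same way. None of the 26 in the fit passed (limma), 22 had lower and 4 higher mean log values in Eldr cKI, and the median difference was -1.28. At an unadjusted p under 0.05, limma gave 2 lower genes and the equal-variance test 1, beside 1.66% and 1.39% of all genes. Without overlap between groups, 1 gene was higher and 1 lower in Eldr cKI, beside 135 and 272 of the 10772 genes tested. Cplx4, a complexin of the ribbon synapses of retinal photoreceptors, was listed at 0 in all Eldr cKI libraries, against 111, 417 and 0 FPKM in control (limma, adjusted p = 0.375). Stx3, the syntaxin that takes the place of Stx1a at ribbon synapses, had 0, 0 and 0.366 FPKM in Eldr cKI, against 19.7, 16.03 and 0 FPKM in control. Syngr1, a vesicle protein related to synaptophysin, was listed at 0 in all Eldr cKI libraries, against 17.5, 23.8 and 0 FPKM in control. In control replicates 1 and 2 the ribbon synapse forms Stx3 and Cplx4 thus stood above their conventional counterparts Stx1a and Cplx2, in FPKM, which is per length. Stx3 was named after its values were seen. Napb, an adaptor that helps take SNARE complexes apart, had 0, 0 and 2.07 FPKM in Eldr cKI, against 3.52, 37.5 and 0 FPKM in control.

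Photoreceptor genes were the other feature of control replicates 1 and 2. The list of rod and cone markers, of which 23 of 25 had a row, summed to 16.5, 37.5 and 44.1 FPKM in Eldr cKI replicates 1, 2 and 3, against 1818, 2627 and 8.69 FPKM in control replicates 1, 2 and 3. Of its 23 genes, 4, 5 and 5 were listed above 0 in Eldr cKI, against 23, 21 and 4 in control. Gnat1, the transducin subunit of rods, was listed at 0 in all Eldr cKI libraries, against 268, 351 and 0 FPKM in control. None of the 23 passed (limma), and the median difference was -3.59. Each gene had a lower mean log value in Eldr cKI, beside 51.1% of all genes. Of the 23, 16 were listed at 0 in all Eldr cKI libraries, beside 16.6% of all rows. At an unadjusted p under 0.05, limma gave 16 of the 23 lower and the equal-variance test 0, beside 1.66% and 1.39% of all genes. The part of photoreceptor RNA in the neuronal values was not tested.

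**Figure D4:**
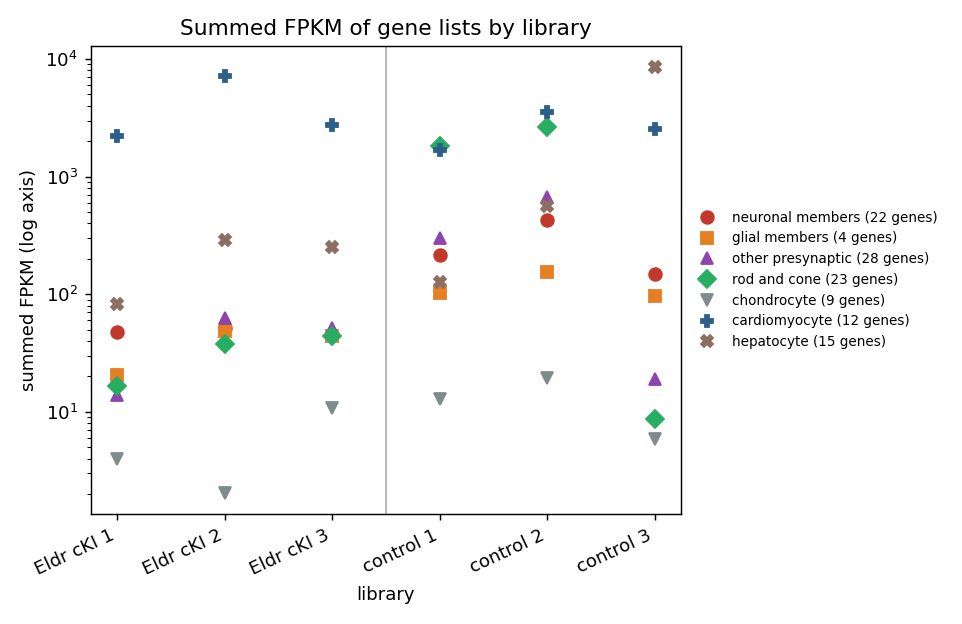
Summed FPKM of 7 gene lists in each library on a log axis, Eldr cKI left and control right of the grey line, with the number of genes with a row in the legend. The presynaptic and rod and cone sums are high together in control replicates 1 and 2. The neuronal sum is 214, 425 and 149 FPKM in control replicates 1, 2 and 3, with Tubb3 at 139 FPKM in control replicate 3. The hepatocyte sum is highest in control replicate 3, at 8528 FPKM.

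The neuronal cytoskeleton is built from microtubules with their associated proteins and from neurofilaments. Map2 (chromosome 1, 66175273 to 66442583, plus strand), which encodes the microtubule-associated protein of dendrites, had 0.143, 0.880 and 0.458 FPKM in Eldr cKI, against 8.31, 24.2 and 1.76 FPKM in control. It was above 0 in all 6 libraries, its groups did not overlap, and its difference was -2.56 (SE 1.45; limma, adjusted p = 0.959). Mapt, the axonal protein tau, had 0, 0.468 and 0.531 FPKM in Eldr cKI, against 2.51, 13.7 and 0 FPKM in control, and here control replicate 3 was as low as the lowest Eldr cKI library. Nefl, the light neurofilament subunit, had 2.84, 0 and 0 FPKM in Eldr cKI, against 16.6, 27.2 and 2.10 FPKM in control, and its difference was -2.88 (SE 1.45; limma, adjusted p = 0.959). Nefm, the medium subunit, was above 0 only in control replicate 2, at 12.6 FPKM. The annotated Nefl and Nefm genes overlap on opposite strands of chromosome 14, and the sources used here do not say whether counting used strand, so how reads in the overlap were assigned is uncertain. Nefl was above 0 in 3 libraries in which Nefm was listed at 0. Snap25, Syt1, Syp, Map2, Slc1a2 and Glul each overlap an annotated gene on the other strand too.

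Tubb3, a beta-tubulin used as a neuronal marker that other cell types can also express, did not follow the other members. It had 38.9, 37.2 and 30.4 FPKM in Eldr cKI, against 11.1, 35.3 and 139 FPKM in control, so the lowest and the highest library were both controls. The means were 35.5 ± 4.51 FPKM in Eldr cKI and 61.7 ± 67.7 FPKM in control (SD, n = 3 each), and the difference of -0.12 (SE 1.24; limma, adjusted p = 0.999) became 0.79 without control replicate 3. The direction also flipped to 0.23 with quantile normalization and to 0.32 after 4 dominant predicted genes were left out and libraries rescaled. Tubb3 overlaps an annotated protein-coding gene, Gm20388, on the same strand, so how reads in the overlap were assigned is uncertain even if counting used strand. Syt1 and Syn2 each overlap a protein-coding gene on their own strand too. Growth-associated genes were found in 1 library each: Gap43, a growth cone protein, was above 0 only in control replicate 2, at 23.2 FPKM. Stmn2 and Stmn3, stathmins that destabilise microtubules in growing neurites, were above 0 only in control replicate 1, at 6.70 and 8.48 FPKM.

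A further list of 47 neuronal cytoskeleton and identity genes had rows for 31, of which none of 28 in the fit passed (limma). Of these, 24 had lower and 4 higher mean log values in Eldr cKI, and the median difference was -1.05. The unadjusted p was under 0.05 for 6 lower genes by limma and for 2 by the equal-variance test, beside 1.66% and 1.39% of all genes. Map1b, a microtubule-associated protein of growing axons named after its values were seen, had 0, 0 and 3.13 FPKM in Eldr cKI, against 50.3, 63.2 and 0 FPKM in control. The most abundant gene of the list, Tuba1a, an alpha-tubulin that dividing cells use as well, had 36.0, 91.3 and 133 FPKM in Eldr cKI, against 200.2, 206 and 47.3 FPKM in control. Marcks, an actin-binding substrate of protein kinase C, had 7.33, 23.5 and 19.1 FPKM in Eldr cKI, against 53.2, 43.7 and 13.1 FPKM in control. Stmn1, a stathmin of dividing cells as well as neurons, had 5.49, 2.18 and 47.5 FPKM in Eldr cKI, against 8.69, 76.4 and 0 FPKM in control. Atp1b1, a subunit of the sodium pump, had 3.10, 9.36 and 28.9 FPKM in Eldr cKI, against 30.1, 38.1 and 13.4 FPKM in control. The groups overlapped in Tuba1a, Marcks, Stmn1 and Atp1b1. Thy1, a surface glycoprotein of projection neurons and of T cells, was listed at 0 in all Eldr cKI libraries, against 1.99, 27.4 and 0 FPKM in control (limma, adjusted p = 0.959).

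Among genes of transmission, Slc17a7 (chromosome 7, 45163949 to 45176142, plus strand), which loads glutamate into vesicles, was listed at 0 in all Eldr cKI libraries, against 24.6, 22.6 and 0.850 FPKM in control. The groups did not overlap, although control replicate 3 was close to 0, and the gene did not pass (limma, adjusted p = 0.959). Its counterpart for inhibitory transmitters, Slc32a1, was above 0 only in control replicate 1, at 2.13 FPKM. Gria2 (chromosome 3, 80681450 to 80802835, minus strand), a subunit of the AMPA receptor for glutamate, had 0, 0.179 and 0.0287 FPKM in Eldr cKI, against 4.32, 1.61 and 1.49 FPKM in control. Every control was above every Eldr cKI library. In control replicates 2 and 3, however, the values lay below the worth of 1 fragment of a 2-kb transcript (7.74 and 5.89 FPKM). A fragment of a longer transcript is worth less, and the transcript length of Gria2 was not used. The difference of -1.61 (SE 1.22) did not pass (limma, adjusted p = 0.959). Camk2a and Camk2b, subunits of a calcium-dependent kinase of the synapse, differed from each other. Camk2a had 5.01, 0.536 and 2.24 FPKM in Eldr cKI, against 4.23, 0.605 and 1.98 FPKM in control, with fully overlapping groups. Camk2b had 0, 0 and 0.458 FPKM in Eldr cKI, against 3.38, 11.0 and 0 FPKM in control.

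In a list of 29 other postsynaptic genes, 23 had a row and none of the 18 in the fit passed (limma), with 13 lower and 5 higher mean log values in Eldr cKI and a median difference of -0.83. By unadjusted p under 0.05, limma gave 1 lower gene and the equal-variance test 2, beside 1.66% and 1.39% of all genes. Gphn, the scaffold of inhibitory synapses that is also made in liver and other tissues, had 2.72, 4.55 and 4.89 FPKM in Eldr cKI, against 10.4, 29.8 and 19.8 FPKM in control, without overlap (limma, adjusted p = 0.959). Dlg4, the scaffold of excitatory synapses, was above 0 only in control replicate 1, at 28.0 FPKM. Ppp3ca, a catalytic subunit of the phosphatase calcineurin, had 13.8, 14.98 and 12.8 FPKM in Eldr cKI, against 22.1, 30.1 and 1.42 FPKM in control. Shank1, another scaffold of excitatory synapses, had 11.0, 3.79 and 1.88 FPKM in Eldr cKI, against 4.92, 9.32 and 8.80 FPKM in control. The groups overlapped in both Ppp3ca and Shank1.

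Many neuronal promoters carry the RE1 element, at which the repressor REST silences them outside the nervous system. The start regions below show how far its letters occur among the members. Gria2 and Slc17a7 are shown because their groups did not overlap. Syn1 is shown because it holds an exact match to the left part of RE1 but was barely detected. Only exact letters were searched, so a part of RE1 with other letters would be missed. Sequences are RefSeq windows of 300 bases on GRCm38.p6, from 250 bases before to 50 bases after an annotated start, 5′ to 3′ on the gene's strand: Gria2 at chr3:80802786-80803085 (minus strand), Slc17a7 at chr7:45163671-45163970 (plus strand) and Syn1 at chrX:20920869-20921168 (minus strand). Capitals mark, on either strand, TTCAGCACC, GGACAG, and AGCACC followed by any 2 bases and GGA.
Gria2: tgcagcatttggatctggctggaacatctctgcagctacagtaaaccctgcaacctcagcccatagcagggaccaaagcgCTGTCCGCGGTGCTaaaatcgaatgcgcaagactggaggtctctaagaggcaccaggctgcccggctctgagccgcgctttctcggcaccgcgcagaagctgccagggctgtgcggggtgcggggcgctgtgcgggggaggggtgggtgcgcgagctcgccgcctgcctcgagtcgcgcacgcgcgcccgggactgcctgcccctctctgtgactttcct
Slc17a7: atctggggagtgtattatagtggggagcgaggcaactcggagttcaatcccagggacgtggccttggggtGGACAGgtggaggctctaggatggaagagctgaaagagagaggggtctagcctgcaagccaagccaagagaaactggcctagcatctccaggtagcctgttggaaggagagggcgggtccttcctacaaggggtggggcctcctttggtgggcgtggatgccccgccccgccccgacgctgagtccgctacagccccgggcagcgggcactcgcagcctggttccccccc
Syn1: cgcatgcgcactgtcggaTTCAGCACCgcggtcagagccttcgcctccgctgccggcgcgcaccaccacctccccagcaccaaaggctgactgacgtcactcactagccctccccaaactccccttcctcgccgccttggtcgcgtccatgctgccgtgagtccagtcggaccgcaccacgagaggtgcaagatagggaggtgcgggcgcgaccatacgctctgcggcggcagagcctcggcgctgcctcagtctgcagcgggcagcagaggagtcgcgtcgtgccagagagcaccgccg
The RefSeq table had windows for 24 of the 35 genes, 26 windows in all. AGCACC followed by any 2 bases and GGA, the joined core of RE1, occurred in 1 of these genes, Gria2, where it lies on the other strand and overlaps GGACAG, and in 0.423% of all 32851 windows. TTCAGCACC, the left part, occurred in Syn1 alone of the 24, and in 0.371% of all windows. The short right part GGACAG occurred in 10 of the 24 genes and in 22.2% of all windows. A match describes these letters only, and their absence from a window says nothing about the factor.

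Astrocytes take up glutamate through Slc1a2 and Slc1a3 and turn it into glutamine with the enzyme encoded by Glul, and in each of these 3 genes every control exceeded every Eldr cKI library. Slc1a2 (chromosome 2, 102658659 to 102790784, plus strand) was listed at 0 in all Eldr cKI libraries, against 5.30, 18.8 and 4.45 FPKM in control (limma, adjusted p = 0.959). Slc1a3 (chromosome 15, 8634124 to 8710764, minus strand) had 0, 0 and 0.718 FPKM in Eldr cKI, against 2.76, 10.4 and 1.65 FPKM in control, and its difference was -2.02 (SE 1.39; limma, adjusted p = 0.959). Glul (chromosome 1, 153899944 to 153909723, plus strand) had 20.4, 48.9 and 43.5 FPKM in Eldr cKI, against 86.6, 109.9 and 90.4 FPKM in control. Its means were 37.6 ± 15.1 FPKM in Eldr cKI and 95.6 ± 12.5 FPKM in control (SD, n = 3 each), and its difference was -1.41 (SE 1.17; limma, adjusted p = 0.959). In all, 6 of the 22 members in the fit were lower in Eldr cKI without overlap, beside 2.53% of all genes tested. These were Map2, Slc17a7, Gria2, Slc1a2, Slc1a3 and Glul, and none was higher without overlap. In all of these but Glul, control replicate 3 had 0.850 to 4.45 FPKM. That is below the worth there of 1 fragment of a 2-kb transcript (5.89 FPKM), but 1 fragment of a longer transcript is worth less. The transcript lengths of these genes were not used, so the number of fragments behind their values is not known. In the authors' deposited table, 4 members had a p under 0.05: Slc1a2 (0.00595), Gria2 (0.0111), Glul (0.0238) and Slc1a3 (0.0426), each with a q of 0.704. Over all 11955 rows of the authors' deposited table, 237 had a p under 0.05 (1.98%) and 0 a q under 0.05.

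Glul and Slc1a2 are also made by hepatocytes around the central vein, and Glul by muscle. Hepatocyte markers summed to 83.1, 291 and 254 FPKM in Eldr cKI replicates 1, 2 and 3, against 127, 563 and 8528 FPKM in control replicates 1, 2 and 3, with 15 of 15 genes above 0 in control replicate 3. The part of liver RNA in the values of control replicate 3 was not tested. Gfap, the intermediate filament of astrocytes, was listed at 0 in all Eldr cKI libraries, against 7.06, 14.1 and 0 FPKM in control. The list of other astrocyte and Müller glia genes, Müller cells being glia of the retina, had 14 of 16 genes with a row. None passed (limma). At an unadjusted p under 0.05, limma gave 1 lower gene and the equal-variance test 0, beside 1.66% and 1.39% of all genes. In this list, 10 genes had lower and 4 higher mean log values in Eldr cKI. Its most abundant gene was Apoe, a lipid carrier that liver secretes, at 76.1, 68.2 and 12.4 FPKM in Eldr cKI, against 87.2, 139 and 813 FPKM in control. The 3 next most abundant genes of the list overlapped between groups. Cd9, a tetraspanin of many cell types, had 4.70, 14.1 and 192 FPKM in Eldr cKI, against 136, 139 and 26.8 FPKM in control. Clu, which encodes the secreted chaperone clusterin, had 50.1, 59.05 and 44.3 FPKM in Eldr cKI, against 76.5, 49.8 and 31.8 FPKM in control, with a difference of 0.04 (SE 1.19; limma, adjusted p = 0.999). Vim, the intermediate filament vimentin, had 41.8, 49.2 and 64.8 FPKM in Eldr cKI, against 84.2, 37.2 and 10.52 FPKM in control, and its difference of 0.64 (SE 1.23; limma, adjusted p = 0.999) ran the other way from that of Apoe. Rlbp1, a retinal-binding protein of Müller glia that was named after its values were seen, was above 0 only in control replicate 1, at 11.3 FPKM.

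Few myelin genes were in the table. Mbp and Mog had no row, and of 13 further genes of central myelin and oligodendrocytes 2 had one. Cnp, an enzyme of myelinating cells, was above 0 only in control replicate 3, at 3.19 FPKM. Of 11 genes of Schwann cells, which make peripheral myelin, 4 had a row. The most abundant, Pmp22, which other cell types also express, had 0, 23.6 and 55.7 FPKM in Eldr cKI, against 37.1, 21.8 and 1.70 FPKM in control. Erbb3, a receptor for neuregulins in Schwann cells and other cell types, had 0, 10.4 and 5.71 FPKM in Eldr cKI, against 1.13, 0 and 0 FPKM in control, with a positive difference of 1.72 (SE 1.37; limma, adjusted p = 0.959). Mal, a myelin and epithelial membrane protein, had 0, 0 and 3.0005 FPKM in Eldr cKI, against 7.55, 0 and 0 FPKM in control. Prx, the Schwann cell protein periaxin, was above 0 only in control replicate 1, at 4.40 FPKM. None of the 4 passed, and their groups overlapped.

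Of the other cell types measured for comparison, housekeeping genes summed to 1144, 2667 and 4159 FPKM in Eldr cKI, against 3373, 1754 and 1888 FPKM in control, so their order was not that of the neuronal genes. Fibroblast markers summed to 120.5 to 153 FPKM in Eldr cKI and 50.4 to 78.9 FPKM in control. Endothelial markers summed to 2.04 to 28.9 FPKM in Eldr cKI and 10.52 to 20.9 FPKM in control. Macrophage markers summed to 10.9 to 284 FPKM in Eldr cKI and 191 to 310 FPKM in control, and erythroid markers to 46.9 to 665 FPKM in Eldr cKI and 418 to 977 FPKM in control. Predicted genes that held over 1% of FPKM in any library, 4 in number, took 64.6% of all FPKM in Eldr cKI replicate 1, and between 4.40% and 16.9% elsewhere. With control replicate 3 and Eldr cKI replicate 1 both left out, 0 of the 26 members then in the fit passed (limma, with 9 at an unadjusted p under 0.05, beside 3.34% of all genes), and the median difference was -2.28, beside 0.12 over all genes. Without control replicates 1 and 2 together, 9 members were in the fit, 0 passed (limma, with the lone control assumed to vary like the other libraries), and 2 had an unadjusted p under 0.05, beside 9.44% of all genes. Of these 9, 6 had lower and 3 higher mean log values in Eldr cKI, and the median difference was -0.99, beside 0.75 over all genes.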

How the data were processed

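RNA was sequenced from 6 samples labelled as chondrocytes, 3 Eldr cKI and 3 control, grouped by the genotype label. Per the labels' protocols, Trizol RNA went through poly(A) isolation, or depletion of ribosomal RNA, before stranded library construction. The submitters' processing notes list cutadapt, HISAT2 2.0.5 and StringTie, and as build the human hg19, although the table's identifiers and loci are mouse ones. The span and strand of all 26 members equal those of GENCODE M21 on GRCm38, and 13 overlap an annotated gene on the other strand. The authors deposited an FPKM for each library, p-values and q-values, a log2 fold change and a linear fold change (ratio), per the file headers. The deposited group values equal means of log2(FPKM + 1).

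Limma 3.58.1 (R 4.3.3) was fitted to log2(FPKM + 1) of all genes whose mean reached 0.5 FPKM, with group as the only term, a mean-variance trend and two-sided tests. The pseudocount of 1 understates differences of low genes. The prior degrees of freedom were infinite, so SEs come from the trend and not from a gene's own spread. P-values were adjusted over all genes by Benjamini-Hochberg. Between 32.0% and 64.8% of low values in genes with 1 transcript were whole multiples of a library's step to within 0.05, so counts were not recovered and depths are rough. On simulated data of these depths the fit was tested with 200 genes changed and 11257 genes in the fit. It recovered 5 of 50 genes at a fold of 2, 25 of 50 at 4, 33 of 50 at 8 and 37 of 50 at 16. In the same run, 15 unchanged genes were called. The changed genes had a mean of at least 5 FPKM, which 10 of the 26 members reached. Apart from them, all simulated libraries shared the same composition, unlike the real ones. The recovery is therefore not the power for the members in these libraries.

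The members and the lists were chosen with earlier results of these data known. By the rule for named genes, the 12 members with the highest mean FPKM, and any other with an unadjusted limma p under 0.05 or no overlap between groups, were described in full. Up to 4 genes of the highest mean were named from each neuronal or glial list. Some genes of these lists are not reported here. Promoter windows came from RefSeq. Summaries used Python 3.11.15, pandas 2.3.3 and numpy 2.4.6, and figures matplotlib 3.10.9.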

Additional observations from a re-analysis of the deposited data

How the results depend on the processing

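Over 18 alternatives, 0 members passed the threshold in either direction, with limma or with the equal-variance test. Of 240 values of the 14 members described in full, 235 kept their direction, and the smallest limma adjusted p was 0.0505, for Slc1a2 without control replicates 1 and 2 together. The exceptions were Tubb3, at 0.23 with quantile normalization, 0.32 without the 4 dominant predicted genes and 0.73 without control replicate 3 and Eldr cKI replicate 1 together, and Vamp2, at 0.72 without control replicates 1 and 2 together, an alternative chosen after seeing the data. With 1 library left out, Tubb3 ranged from -0.97 to 0.79. The median difference of the members tested ranged from -2.46 to -1.51 in the same way, and was -3.80 with a pseudocount of 0.1, which widens differences from 0 by construction.

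Over all genes, the count of lower genes, 3, was 6 with a pseudocount of 0.1 (and 2 higher), 1 with a mean FPKM of at least 5, 0 without the trend, 1 with quantile normalization, 13 with array quality weights (4 higher) and 0 with the equal-variance test. It was 1 without the dominant predicted and mitochondrial genes (1 higher), and 2 genes were higher without the dominant predicted genes alone. It was 0 without control replicate 3 and Eldr cKI replicate 1 together and 0 without control replicates 1 and 2 together. With 1 library left out, it ranged from 0 to 7 and the higher genes from 0 to 5: lower genes numbered 7 when control replicate 1 was left out, 5 when Eldr cKI replicate 2 was, and 0 when Eldr cKI replicate 1 or control replicate 3 was. The cause was not tested. The labels give no pairing of the libraries. Same-numbered deviations from the group means correlated at -0.17, 0.03 and -0.15, and the other pairs at -0.07 to 0.24. With 3 libraries of mixed composition per group, these values cannot decide whether replicate numbers pair the libraries. A replicate block gave 5 lower genes and 0 members. At these depths, an FPKM of a few units in a 2-kb transcript rests on about 1 fragment, and in a longer transcript on more.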
